A study of Arabidopsis thaliana with 12 samples.

Results

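The bright probes of dark-kept wild-type Arabidopsis are the array features whose mean deposited intensity over the 6 wild-type samples was 3 or more. They number 130 of the 3439 probes in the table. Of these, 19 list 1 gene and are described here by name, and 20 list several genes and are described with all of them. Another 7 list a photosynthesis, chlorophyll synthesis or NDH gene that the rule leaves out of the naming, and 84 list no gene in the platform annotation and are counted only. The wild-type level chose the members, so that level is a description, and differences from prors2 share their wild-type side with the rule.

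The series holds total RNA of Arabidopsis thaliana, ecotype Columbia 0, on 12 arrays. The 6 wild-type samples (titled WT2_dark) and the 6 samples of the prors2 mutant (prors2_dark) all came from plants adapted to the dark over night, and the mutant is labelled as lacking prolyl tRNA synthetase. The groups were read from the titles, because the material of every sample, prors2 included, carries a wild-type source label. The labels used here name no tissue, plant age or kind of prors2 allele.

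Prolyl-tRNA synthetase joins proline to its tRNA, and without that step ribosomes cannot read proline codons. Plants need such enzymes in the cytosol and in both organelles that translate their own genomes, the plastid and the mitochondrion. In green tissue a small number of nuclear genes, many of them for photosynthesis, supply a large part of the messenger RNA, and their transcripts fall and rise with light. In RNA of whole tissue, fewer cells of a type and less RNA per cell cannot be told apart.

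Samples with consecutive numbers were close to repeats of each other. Over the 130 bright probes, numbers 1 and 2, 3 and 4, and 5 and 6 of a group differed by a median of 0.069 to 0.088 on the log2 scale of deposited intensity. All other sample pairs within a group differed by 0.26 to 0.39. Nothing in the labels says whether the samples came from separate plants, so p-values over 6 against 6 samples measure only the spread between these samples and are too small if consecutive numbers share an RNA. Values with each consecutive pair averaged (3 against 3) therefore stand beside them. The sets of numbers were also alike across the groups: over the bright probes, deviations from the group mean correlated between wild type and prors2 at 0.34 for numbers 1 and 2, 0.33 for 3 and 4, and 0.42 for 5 and 6 (Pearson r across 130 probes of the same 12 arrays). Between different sets the same correlation ran from -0.27 to -0.074. The deviations of a group sum to 0 over its 3 sets, so part of this contrast is arithmetic. Over 1940 features the same-set correlations were 0.17, 0.0096 and 0.18, and those between different sets ran from -0.23 to 0.11.

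The bright probes carried most of the signal of the wild-type arrays and a smaller part of the prors2 arrays. In wild type, 73.5% ± 0.870 (SD, n = 6) of the summed deposited intensity lay in these 130 probes, with a lowest value of 72.6%, a median of 73.2% and a highest value of 74.6%. In prors2 the share was 52.3% ± 3.70 (SD, n = 6), with a lowest value of 48.1%, a median of 51.7% and a highest of 56.8%. Every prors2 sample was below every wild-type sample. The difference lay on both sides of the threshold. The bright probes summed to 2058 ± 132 in wild type and 1664 ± 75.9 in prors2, and all other probes to 743 ± 71.1 and 1531 ± 252 (SD, n = 6 each). The median over all 3439 probes moved with this, from 0.0764 ± 0.0103 to 0.333 ± 0.0724 (SD, n = 6 each), and the part of this rise of the dim signal in the results below was not tested. Because the wild-type values chose the probes, no test was made of the share.

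**Figure D1:**
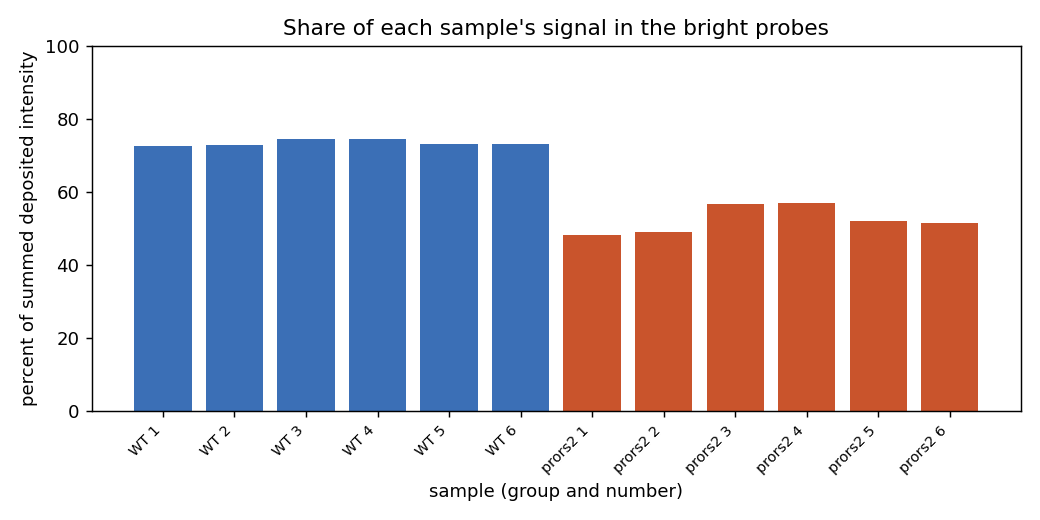
Bars give the percent of each sample's summed deposited intensity that lay in the 130 bright probes, for the 6 wild-type samples (blue) and the 6 prors2 samples (orange). Wild type sits between 72.6% and 74.6% and prors2 between 48.1% and 56.8%, with prors2 numbers 3 and 4 highest.

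Most of the bright set was bright in the mutant too. Of the 130 probes, 103 also had a mean of 3 or more in prors2, which is 79.2% of the wild-type set and 82.4% of the 125 probes that were bright in prors2. By rank the picture was similar, with 100 to 106 of the 130 among the 130 highest probes of each single prors2 sample, against 118 to 124 in the wild-type samples that chose them. The log2 means of the groups correlated at 0.93 (Pearson r across the 130 probes, a description only). None of the 130 was at 0 in any sample. The spread between samples was alike, with a median coefficient of variation of 17.8% in both groups.

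**Figure D2:**
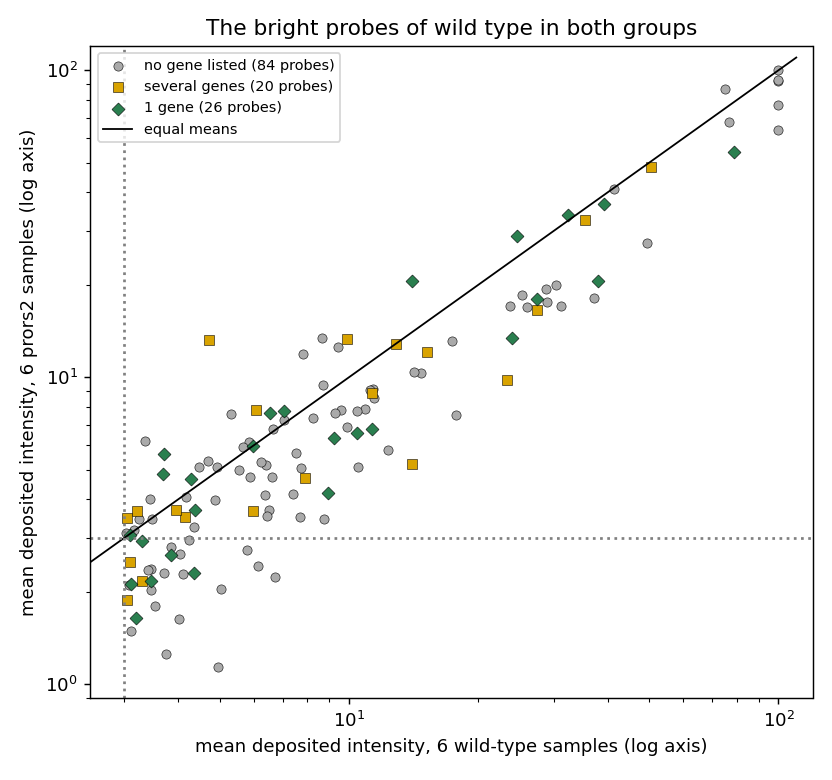
Each point is 1 of the 130 bright probes, with its mean deposited intensity in wild type on the horizontal and in prors2 on the vertical axis (both log axes). Dotted lines mark 3, and 98 of the 130 points lie below the line of equal means.

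The top of the scale is limited. Deposited values stop at 100, and 5 probes, none with a listed gene, were at this ceiling in all 6 wild-type samples. In prors2 their means ran from 64.0 to 100, and 1 of the 5 was at the ceiling in all 12 samples. Another probe with no listed gene reached the ceiling in 2 wild-type and 2 prors2 samples. For such probes the wild-type value is only a lower bound. None of the described probes reached the ceiling. An intensity depends on the probe as well as on the transcript, so the order of the probes is not an order of transcript numbers.

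As deposited, 98 of the 130 probes had a lower mean in prors2 and 31 a higher one. In 46 probes (35.4%) all prors2 values lay below all wild-type values, and in 3 (2.31%) all lay above. Over all 3439 probes these percentages were 2.53% below and 45.7% above. Choosing probes for a high wild-type level favours lower prors2 values, so these counts are descriptions. With limma on deposited log2 values, 63 of the 130 passed as lower and 6 as higher at an adjusted p under 0.05, where 5.37% of all 2684 tested features passed as lower and 69.6% as higher. The median log2 difference was -0.42 over the bright probes and 1.49 over all features, so these medians had opposite signs.

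Quantile normalization gives the values above 0 of all samples the same distribution and so removes that shared shift among them. Zeros, left missing, numbered 746 to 926 per wild-type sample and 431 to 609 per prors2 sample. A rank among all probes therefore does not give the same normalized value in both groups. After it, 17 of the 130 bright probes passed as higher and 28 as lower. Over all 2684 features, 25% passed as higher and 20.6% as lower, and the bright probes stood at 13.1% and 21.5%. Their median difference was 0.014, against 0.094 over all features. When zeros were kept with a pseudocount these medians were -0.14 and -0.019. That fit passed 11 of the 130 as higher and 44 as lower, beside 702 and 751 of all 3438 features. In the fit with zeros missing, 126 probes chosen by the mean over all 12 samples gave 25 higher and 19 lower. That choice does not favour a direction. Chosen by the prors2 mean, 125 probes gave 36 higher and 11 lower, so the balance of higher and lower followed the samples that chose the probes. With each consecutive pair averaged, 3 of the 130 passed as higher and 6 as lower, where 12.5% and 8.46% of 2459 features did. With the set of numbers as a fixed block, added after the data were seen, 30 passed as higher and 36 as lower, beside 30.3% and 24% of all features. With averaged pairs and that block together 2 and 3 passed, beside 10.9% and 6.75%.

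The direction of a bright probe depended on the scale. With each sample centred on the median of its values above 0, 128 of the 130 passed as lower and 0 as higher (limma). At an unadjusted p under 0.05 (limma) 0 were higher too, as no bright probe had a difference above 0. Over all features 33.7% passed as lower and 24.3% as higher. Every rise named below therefore holds after quantile normalization of the values above 0, and is absent or turned on the median-centred scale. All 9 described probes that fell after quantile normalization also passed as lower on the other 2 scales. Of all 39 described probes, 15 passed as lower as deposited and 37 with median centring, beside 5.37% and 33.7% of all features. A lower call on those scales is therefore no separate support for the 9 falls. Of the 9 that rose, 2 also passed as higher as deposited.

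**Figure D3:**
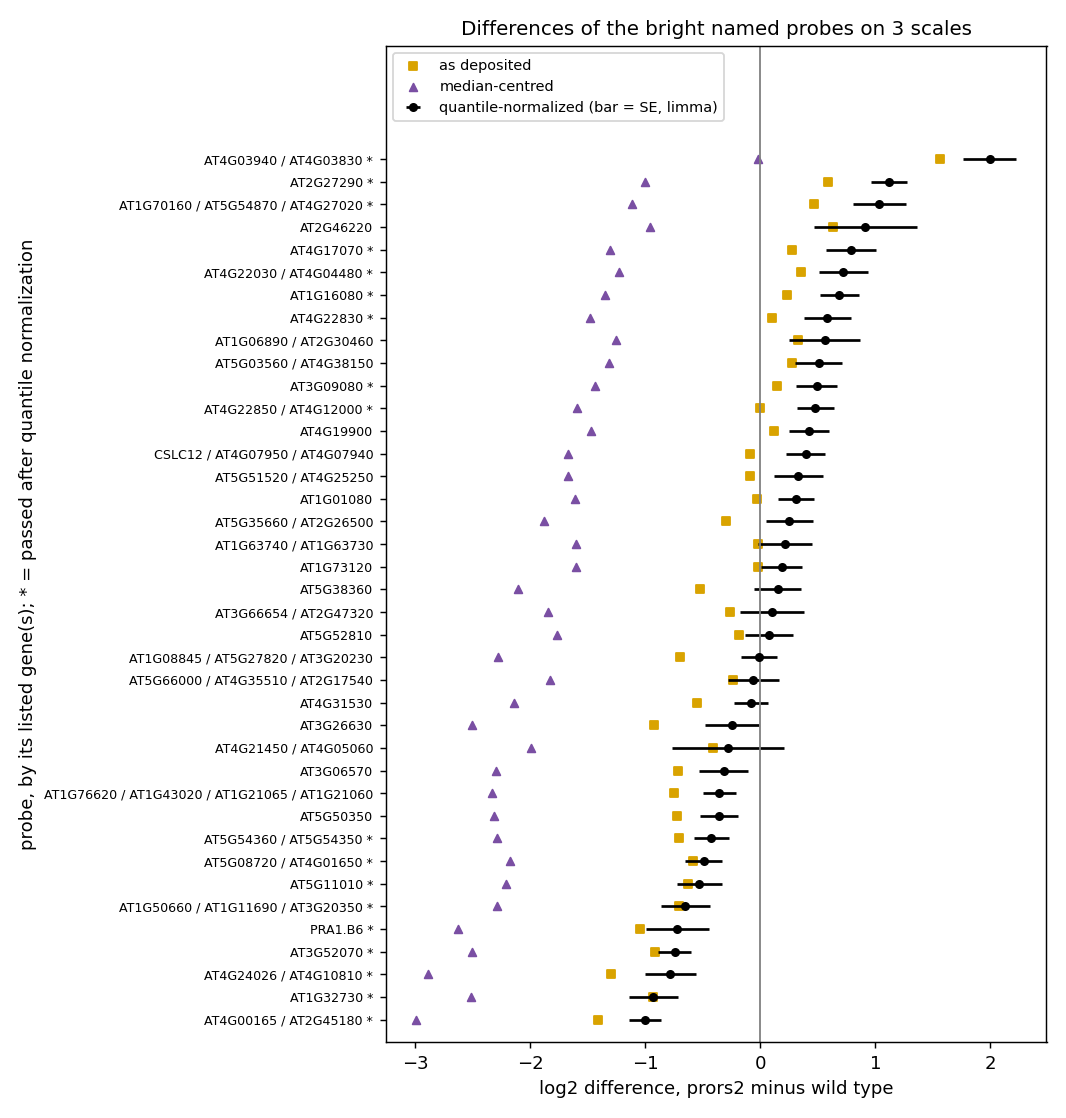
Points give the log2 difference (prors2 minus wild type) of the 39 described probes after quantile normalization (black, with its standard error), as deposited (yellow) and with median centring (purple); an asterisk marks an adjusted p under 0.05 in the first. The median-centred values all lie below 0, and the largest rise and fall after quantile normalization are 1.99 and -1.003.

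Among the 39 described probes, 9 rose and 9 fell after quantile normalization (limma, adjusted p under 0.05). That is 23.1% each way, near the 25% and 20.6% of all features, so the counts are no result about these probes. With consecutive pairs averaged, 2 of the rises and 1 of the falls also passed, 5.13% and 2.56% against 12.5% and 8.46%. These 3 were the probe of AT4G03940 and AT4G03830, the probe of AT2G27290, and the probe of AT4G00165 and AT2G45180. Their group values did not overlap. With averaged pairs and the set of numbers as a block, the first of them still passed (limma, adjusted p = 0.0268), and the other two did not (0.0668 and 0.0713).

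The probe listing AT4G03940 and AT4G03830 showed the largest rise. Its deposited intensity in wild type had a lowest value of 2.91, a median of 4.36 and a highest of 7.09, and in prors2 11.9, 13.3 and 14.3. Every prors2 sample was above every wild-type sample, and wild-type numbers 3 and 4 were lowest. The means were 4.73 ± 1.81 and 13.2 ± 1.03 (SD, n = 6 each), a ratio of 2.79 as deposited. After quantile normalization it rose by 1.99 on the log2 scale (standard error 0.23, limma, adjusted p = 4.2e-05, 0.0145 with pairs averaged, and 0.0268 with the set as a block as well). The difference was 1.67 for numbers 1 and 2, 2.27 for 3 and 4, and 2.04 for 5 and 6. With median centring the difference was -0.021 (limma, adjusted p = 0.944). This probe thus kept its distance from the median of the values above 0, while 128 of the 130 bright probes passed as lower. The median over all probes, zeros included, was not used for centring. Its median rank went from 102 in wild type to 31.5 in prors2. Which of the listed genes gave the signal cannot be told from this probe.

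AT2G27290, which encodes a DUF1279 protein of the FAM210 type, was the named single gene with the largest rise that passed. Wild-type intensities had a lowest value of 10.12, a median of 13.9 and a highest of 17.9, and prors2 values of 18.8, 19.7 and 23.0. The groups did not overlap, and numbers 5 and 6 came closest to each other. The means were 13.99 ± 3.19 and 20.6 ± 1.89 (SD, n = 6 each). After quantile normalization the gene rose by 1.12 (standard error 0.16, limma, adjusted p = 1.7e-04, 0.0350 with pairs averaged, and 0.0668 with the set as a block as well). The difference was 1.22, 1.47 and 0.67 in the 3 sets of numbers. Its deposited values also passed as higher (0.59, limma, adjusted p = 0.00859), and with median centring it passed as lower (-1.0006, adjusted p = 4.4e-04). Its median rank went from 34 to 17.

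The largest fall among described probes belonged to the probe listing AT4G00165 and AT2G45180, both of the bifunctional inhibitor, lipid-transfer protein and 2S albumin superfamily of small secreted cysteine-rich proteins. In wild type its intensity had a lowest value of 11.1, a median of 14.8 and a highest of 16.4, and in prors2 of 4.71, 5.43 and 5.63. The prors2 samples lay close together below all wild-type samples, whose lowest were numbers 3 and 4. The means were 14.1 ± 2.29 and 5.23 ± 0.404 (SD, n = 6 each), 2.68-fold lower in prors2. After quantile normalization the log2 difference was -1.003 (standard error 0.14, limma, adjusted p = 1.5e-04, 0.0399 with pairs averaged, and 0.0713 with the set as a block as well), and in the sets of numbers it was -1.26, -0.73 and -1.02. The median rank moved from 34 to 73.5.

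**Figure D4:**
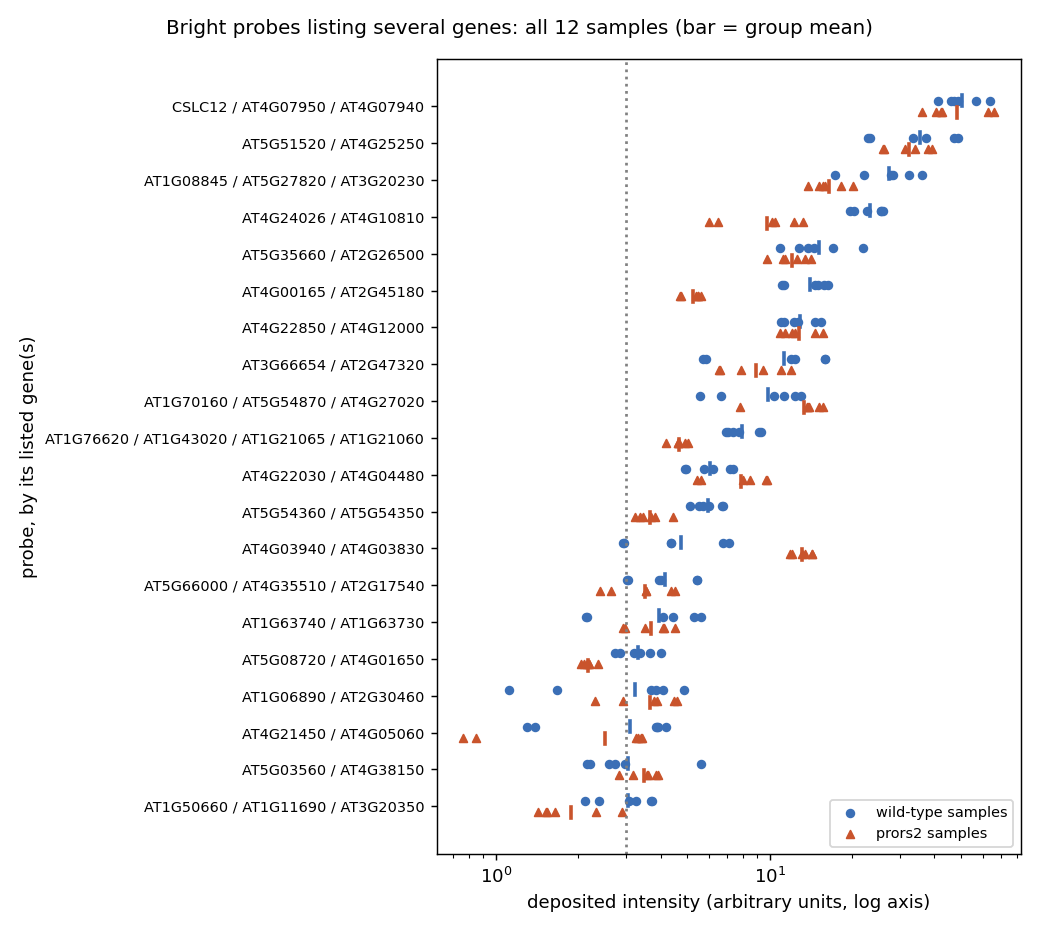
Deposited intensities (log axis) in all 12 samples for the 20 bright probes that list several genes, with wild type as circles, prors2 as triangles and short bars at the group means. The dotted line marks 3. The prors2 points of AT4G03940 / AT4G03830 lie to the right of all its wild-type points, and those of AT4G00165 / AT2G45180 to the left.

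AT4G17070, a peptidyl-prolyl isomerase, rose by 0.79 (standard error 0.22, limma, adjusted p = 0.0110, and 0.115 with pairs averaged). Its wild-type intensities had a lowest value of 11.8, a median of 26.3 and a highest of 31.9, and prors2 values of 16.5, 31.1 and 33.2, so the groups overlapped, with number 3 lowest in each. The probe listing AT3G66654 and AT2G47320, cyclophilin-type isomerases of the same activity, had a difference of 0.10 (adjusted p = 0.790), from 11.3 ± 4.61 to 8.91 ± 2.30 (SD, n = 6 each). AT1G01080, a chloroplast RNA-binding protein with RNA recognition motifs, had the smallest coefficient of variation in wild type among the described probes below the ceiling, 6.08%, with values from 5.53 to 6.47 with a median of 5.97. In prors2 it ran from 4.65 to 7.58 with a median of 5.63, around the wild-type range, and its difference was 0.31 (limma, adjusted p = 0.121).

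AT3G26630, a pentatricopeptide repeat protein of the family that binds organelle RNA, was lower as deposited without overlap. Its wild-type values ran from 22.0 to 27.3 with a median of 23.6, and its prors2 values from 7.54 to 18.9 with a median of 14.2. The lowest prors2 samples were numbers 3 and 4. Its deposited values passed as lower (-0.92, limma, adjusted p = 0.00414), but it did not pass after quantile normalization (-0.25, adjusted p = 0.413), where only numbers 3 and 4 were lower (-1.12, against 0.19 in each other set). The probe listing AT5G03560 and AT4G38150, of the same repeat class, had a difference of 0.51 (adjusted p = 0.0603), with means of 3.05 ± 1.31 and 3.49 ± 0.422 (SD, n = 6 each). AT5G11010, a relative of the Clp1 and NOL9 polynucleotide kinases of RNA processing, fell by 0.53 (limma, adjusted p = 0.0419, and 0.260 with pairs averaged). Its intensity ran from 2.60 to 4.92 in wild type and from 1.80 to 2.44 in prors2, with wild-type numbers 1 and 2 highest and no overlap. The wild-type median of this gene, 2.91, was under 3, so it met the rule through numbers 1 and 2. There the difference was -0.92, against -0.21 and -0.46 in the other sets. The probe of AT1G08845, AT5G27820 and AT3G20230, of the ribosomal protein L18p/L5e family, had means of 27.3 ± 6.79 and 16.5 ± 2.31 (SD, n = 6 each). On the deposited scale it passed as lower (-0.70, limma, adjusted p = 0.00608), while its normalized difference was -0.012 (adjusted p = 0.958).

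On 2 of the probes a listed gene serves a thylakoid complex, and 1 of them fell. The probe of AT5G35660 and AT2G26500 includes the PetM subunit of the cytochrome b6f complex, which passes electrons between the photosystems. Its wild-type values ran from 10.9 to 22.0 with a median of 14.2, and its prors2 values from 9.79 to 14.2 with a median of 11.96. The groups overlapped, and its normalized difference was 0.25 (limma, adjusted p = 0.331). The probe of AT5G08720 and AT4G01650 includes HCF145, needed for a stable transcript of the photosystem I core genes in the plastid. It fell by 0.49 (standard error 0.16, limma, adjusted p = 0.0245, and 0.253 with pairs averaged), and the groups did not overlap, with medians of 3.28 for wild type and 2.16 for prors2. Just outside the threshold stood a probe of AT4G38100 and AT4G01150, CURT1 proteins that bend thylakoid membranes, with means of 2.99 ± 0.497 and 2.01 ± 0.350 (SD, n = 6 each; wild type first). The other probe just outside had 2.98 in wild type, and the 2 just inside had 3.03 and 3.04.

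The textbook lists reached few of these probes. They hold 188 loci in 14 lists (photosystem I and II subunits, light-harvesting proteins, plastid electron transport and ATP synthase, Calvin cycle, photorespiration, tetrapyrrole synthesis, plastid thioredoxins and antioxidant enzymes, plastid chaperones, plastid RNA-binding proteins, plastid ribosomal proteins, dark-induced genes, and markers of mesophyll and of other organs). Only 17 loci have a probe of their own, of which 6 were bright, all among the 7 left out of the naming. None of those 7 passed after quantile normalization (limma), in either direction (1 as lower at an unadjusted p under 0.05), and on the deposited and median-centred scales 3 and 7 passed as lower. On these 2 scales 48.5% and 98.5% of the 130 bright probes passed as lower, and 5.37% and 33.7% of all features. With the set of numbers as a block 1 of the 7 passed as higher, beside 30.3% of all features. Other quantile-normalized fits differed. Of the 6 on the lists, 3 passed as lower with features above 0 in all samples, and 3 with zeros kept by a pseudocount (limma). In these fits 42 and 44 of the 130 bright probes passed as lower, and 518 and 751 of all features. With trend and robust settings 1 of the 6 did, beside 36 of the 130 and 558 of 2684 features. The means of the 7 ran from 3.10 to 39.2 in wild type and from 2.12 to 36.7 in prors2. Among the 7 organ and cell type markers other than mesophyll, 0 had a probe. Of the 5 mesophyll markers, only RCA, the rubisco activase, appeared, on 2 probes shared with AT1G73110, with means of 0.531 ± 0.0741 and 0.975 ± 0.174 (SD, n = 6 each; wild type first) on one and at 0 in every sample on the other. The tissue could therefore not be checked on its markers.

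PRA1.B6, a prenylated Rab acceptor of vesicle transport, fell by 0.72 (standard error 0.28, limma, adjusted p = 0.0482, and 0.238 with pairs averaged). Its wild-type intensity had a lowest value of 5.70, a median of 7.34 and a highest of 13.8, and prors2 values of 2.87, 4.69 and 4.92. The groups did not overlap, and wild-type numbers 3 and 4 stood well above the other wild-type samples. The call held in 2 of the 12 fits that left out 1 sample. The probe of AT4G22850 and AT4G12000, SNARE-associated Golgi proteins, had nearly equal means of 12.9 ± 1.79 and 12.8 ± 1.88 (SD, n = 6 each). It rose by 0.48 after normalization (limma, adjusted p = 0.0281, and 0.269 with pairs averaged) and had a difference of -0.0080 as deposited and -1.59 with median centring.

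On 2 further membrane probes, numbers 3 and 4 were lowest in each group. The probe of AT1G06890 and AT2G30460, UDP-xylose carriers that feed wall polysaccharide synthesis, ran from 1.12 to 4.85 in wild type and from 2.31 to 4.59 in prors2, with numbers 3 and 4 lowest in each. Its difference was 0.56 (adjusted p = 0.155). The probe of AT4G21450 and AT4G05060, of the VAP family that tethers the endoplasmic reticulum to other membranes, fell to 1.30 and 1.39 in wild-type numbers 3 and 4 and to 0.844 and 0.762 in the same prors2 numbers. The other samples of this probe lay between 3.26 and 4.19, and its difference was -0.29 (limma, adjusted p = 0.654).

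The probe of CSLC12, a glucan synthase of xyloglucan making, with AT4G07950 and AT4G07940, had means of 50.6 ± 8.22 and 48.4 ± 12.7 (SD, n = 6 each) and a difference of 0.39 (limma, adjusted p = 0.0789). The probe of AT5G51520 and AT4G25250, pectin methylesterase inhibitors, ran from 22.9 to 48.9 with a median of 35.3 in wild type and from 25.9 to 39.4 with a median of 32.6 in prors2. In both groups numbers 3 and 4 were lowest and 5 and 6 highest, and its difference was 0.33 (adjusted p = 0.219). AT4G19900, an alpha-1,4-glycosyltransferase family protein, had means of 4.29 ± 0.701 and 4.67 ± 0.887 (SD, n = 6 each) and a difference of 0.42 (adjusted p = 0.0586).

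3 further probes of metabolism and defence did not pass after quantile normalization, and all 3 passed as lower with median centring. AT4G31530, a Rossmann-fold NAD(P)-binding protein, was the named single gene with the highest intensity, from 67.7 to 91.3 with a median of 78.6 in wild type and from 43.5 to 66.5 with a median of 51.4 in prors2. The groups did not overlap, and it was called lower on the deposited scale (-0.56, limma, adjusted p = 0.00686) and not after quantile normalization (-0.082, adjusted p = 0.683). AT5G52810, known as SARD4, which acts in making the immune signal pipecolic acid, had means of 3.29 ± 0.685 and 2.93 ± 0.815 (SD, n = 6 each) and a difference of 0.075 (adjusted p = 0.791). The probe of AT1G63740 and AT1G63730, resistance proteins of the TIR-NBS-LRR class, had 3.95 ± 1.51 and 3.68 ± 0.664 (SD, n = 6 each) and a difference of 0.22 (adjusted p = 0.468).

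The probe of AT4G22030 and AT4G04480, F-box proteins of the kind that pick targets for the ubiquitin system, rose by 0.72 (standard error 0.21, limma, adjusted p = 0.0147, and 0.170 with pairs averaged), from means of 6.06 ± 1.05 to 7.85 ± 1.93 (SD, n = 6 each). Its set differences were 0.45, 0.95 and 0.76. AT3G06570, a kelch-repeat F-box protein, ran from 7.61 to 12.8 in wild type and from 4.25 to 9.52 in prors2 with overlap, and its difference was -0.32 (adjusted p = 0.242). AT3G09080, a WD40 repeat protein, rose by 0.49 (limma, adjusted p = 0.0399, and 0.276 with pairs averaged), from 7.07 ± 1.58 to 7.74 ± 1.08 (SD, n = 6 each), and passed in 3 of the 12 fits that left out 1 sample.

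The remaining named genes are given without a role. Among single genes, AT1G16080 rose by 0.69 (limma, adjusted p = 0.00609) and AT4G22830 by 0.58 (adjusted p = 0.0358). AT4G22830 ran from 19.1 to 45.2 in wild type and from 23.0 to 41.6 in prors2, with numbers 3 and 4 lowest in each group. Averaging the pairs ended both calls (limma, adjusted p = 0.143 and 0.246). AT3G52070 fell by 0.75 (standard error 0.14, limma, adjusted p = 0.00116) and AT1G32730 by 0.93 (standard error 0.21, adjusted p = 0.00358). The wild-type values of AT3G52070 ran from 3.52 to 4.96 and its prors2 values from 1.98 to 2.78, without overlap. Those of AT1G32730 ran from 2.24 to 4.57 and from 1.27 to 2.31, overlapping slightly. The wild-type median of AT1G32730, 2.81, was under 3, so it met the rule through numbers 5 and 6. With pairs averaged AT3G52070 and AT1G32730 had adjusted p-values of 0.0920 and 0.0910 (limma).

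AT2G46220, a DUF2358 protein, varied with the sets of numbers in both groups. Its wild-type intensities were 6.47 and 6.31 in numbers 1 and 2, 1.47 and 1.66 in 3 and 4, and 2.67 and 3.66 in 5 and 6. In prors2 they were 9.42 and 9.65, 2.58 and 2.61, and 3.61 and 5.97, so each set was higher in prors2 than the same set of wild type while the groups overlapped. The normalized differences of the sets were 0.996, 0.81 and 0.93. The difference of 0.91 did not pass in the unblocked fit (standard error 0.45, limma, adjusted p = 0.112). With the set as a fixed block its adjusted p was 0.000687 (limma), and with pairs averaged as well 0.0781.

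AT5G38360, AT5G50350 and AT1G73120 did not pass, with differences of 0.15, -0.36 and 0.19 (limma, adjusted p = 0.576, 0.0907 and 0.407). AT5G38360 had a wide range in wild type, from 14.97 to 37.5, and a narrow one in prors2, from 15.9 to 20.8. AT5G50350 had means of 11.3 ± 2.04 and 6.79 ± 1.102 (SD, n = 6 each) and was called lower on the deposited scale (-0.73, limma, adjusted p = 0.00180).

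**Figure D5:**
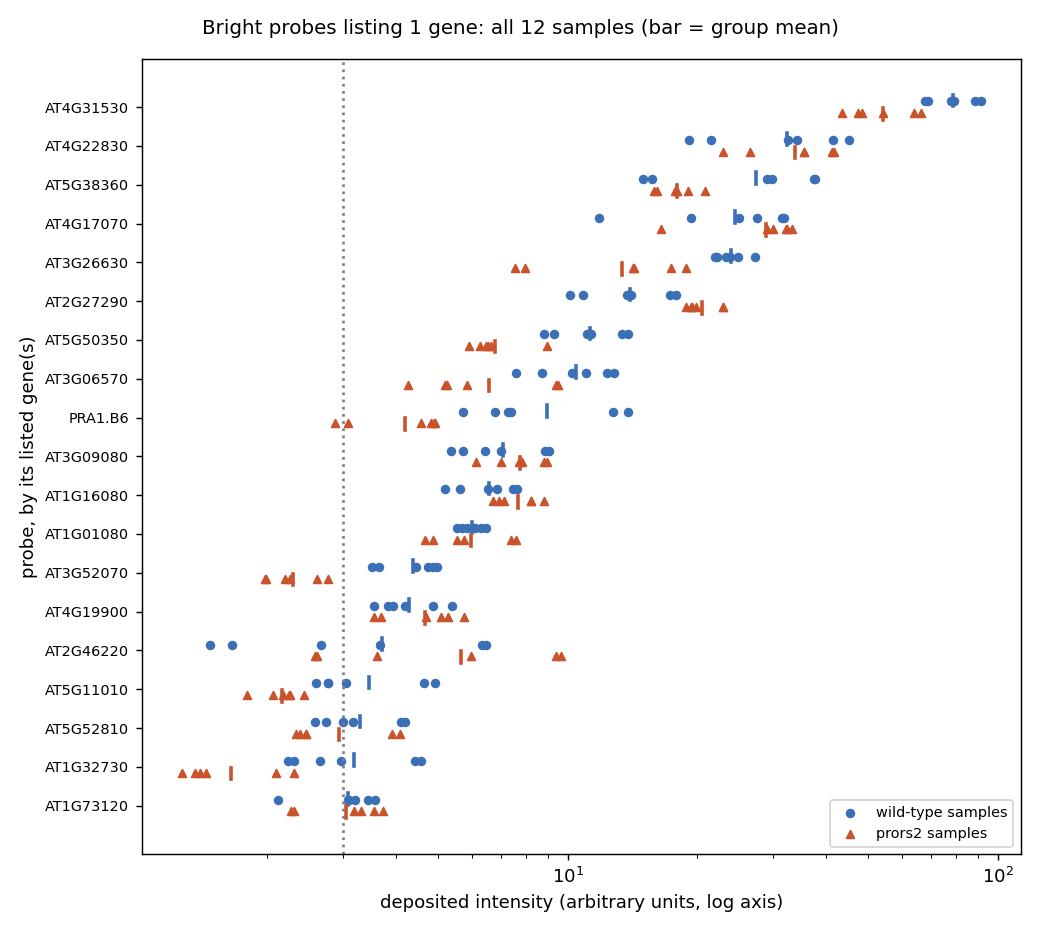
Deposited intensities (log axis) in all 12 samples for the 19 bright probes that list 1 described gene, with wild type as circles, prors2 as triangles and short bars at the group means; the dotted line marks 3. The prors2 points of AT2G27290 lie above all its wild-type points, those of AT4G31530, AT3G26630, PRA1.B6, AT3G52070 and AT5G11010 below.

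Of the probes with several genes and no stated role, the one of AT1G70160, AT5G54870 and AT4G27020 rose by 1.04 (standard error 0.23, limma, adjusted p = 0.00327, and 0.0743 with pairs averaged). It ran from 5.57 to 13.1 in wild type and from 7.83 to 15.7 in prors2, with number 3 lowest in each. Its differences were 0.98, 1.28 and 0.85 in the sets of numbers. The probe of AT4G24026 and AT4G10810 fell by 0.78 (standard error 0.22, limma, adjusted p = 0.0120, and 0.147 with pairs averaged). Its values lay between 19.7 and 25.9 in wild type and between 5.99 and 13.2 in prors2, where numbers 3 and 4 were lowest, and the fall was -1.63 there against -0.33 and -0.40 in the other sets.

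The probe of AT1G50660, AT1G11690 and AT3G20350 fell by 0.66 (limma, adjusted p = 0.0240) and that of AT5G54360 and AT5G54350, neighbouring loci, by 0.43 (adjusted p = 0.0358). Averaging the pairs ended these calls too (limma, adjusted p = 0.195 and 0.293). The probe of AT1G76620, AT1G43020, AT1G21065 and AT1G21060 had a difference of -0.36 (adjusted p = 0.0537). Its values of 6.93 to 9.27 in wild type and 4.20 to 5.05 in prors2 did not overlap as deposited. The probe of AT5G66000, AT4G35510 and AT2G17540 had 4.14 ± 1.08 and 3.50 ± 0.866 (SD, n = 6 each) and a difference of -0.062 (adjusted p = 0.843).

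The 84 bright probes with no listed gene make up 64.6% of the set, against 54.6% of all probes. Their wild-type means ran from 3.03 to 100 with a median of 6.88, and their prors2 means from 1.13 to 100 with a median of 5.48. After quantile normalization 8 of the 84 rose and 19 fell (limma, adjusted p under 0.05). These are 9.52% and 22.6%, beside 25% and 20.6% of all features. With pairs averaged 1 and 5 passed, 1.19% and 5.95% beside 12.5% and 8.46%.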

How the data were processed

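Per the labels, total RNA of 6 wild-type and 6 prors2 samples was measured by array. The deposited intensities are linear, from 0 to a ceiling of 100 in arbitrary units. The sources used here do not say how the authors made them, and no signal over background is given. No other value columns were left out.

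Genes came from the platform annotation, and symbols from the TAIR10.1 gene table, which matched 690 of 692 probes with 1 gene. Zeros became missing values. The rest were log2-transformed and quantile-normalized, and probes of the same gene averaged. Testing required 3 or more values above 0 per group, which 2684 of 3438 features had. They were fitted with lmFit and eBayes of limma 3.58.1 (R 4.3.3), 2-sided, with Benjamini-Hochberg adjustment over all tested features. The fit was tested on simulated data. All 130 bright probes passed the filter. Adjusted p-values in the text are limma's.

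The members, the naming rule and the lists were chosen with earlier results of these data known. The rule names every bright probe with 1 gene outside the excluded ones, the 15 highest with several genes, the 2 probes on each side of the threshold, and up to 8 called probes each way; the other 5 probes with several genes were named as well, after their values were seen. Functions stated for genes are background knowledge. The number of arrays limits the precision. No sequences of these probes were used here. Alternatives covered scaling, zeros, dim features, the ceiling, consecutive pairs, blocks, eBayes settings, the choice of members and single samples left out; fits with the set of numbers as a fixed block were added after the data were seen.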

Additional observations from a re-analysis of the deposited data

Results flagged for a closer look

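Of 78 groups of 6 deposited intensities of the described probes, 5 held a sample far from the others, where chance gives about 1 in 20 groups. The count is near that rate, which holds for independent values, while consecutive numbers here were close to repeats. In prors2 number 3, AT4G17070 had 16.5 while the other prors2 samples lay between 29.1 and 33.2, and the probe of AT1G70160, AT5G54870 and AT4G27020 had 7.83 while the others lay between 13.7 and 15.7. On both probes number 3 was also the lowest wild-type sample. In wild-type number 4, the probe of AT5G03560 and AT4G38150 had 5.63 against 2.15 to 2.97 in the others, and AT1G73120 had 2.12 against 3.09 to 3.56. In prors2 number 5, AT5G50350 had 8.98 against 5.90 to 6.62. In each of these cases the sample with the neighbouring number, otherwise close to a repeat, did not share the far value.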

How the results depend on the processing

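Between-sample scaling changed the results most. The counts of all features and of the bright probes that passed are given in the report for the deposited and the median-centred scale, and with equal summed intensity they were 1754 higher and 205 lower over all features, and 3 and 78 over the bright probes, with a median of -0.61. As deposited they were 1869 and 144 over all features and 6 and 63 over the bright probes, median -0.42. With median centring 905 features and 128 bright probes were lower and 0 bright probes higher, median -2.01. Of the 6 list genes, 3, 6 and 5 were lower on the deposited, median-centred and equal-sum scales. The median over all features was 1.49, -0.097 and 1.30 on these scales, -0.060 with features above 0 in every sample, -0.019 with the pseudocount and 0.18 without the dimmest features.

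A described probe counts here as turned if its sign changed and it passed in the fit of the report or in the other fit. With equal sums AT3G09080 turned to -0.040, AT5G38360 to -0.71, AT4G22830 to -0.085 and the probe of AT4G22850 and AT4G12000 to -0.20, and the last was -0.0080 as deposited. With median centring 21 described probes turned, among single genes AT4G19900 to -1.47, AT4G17070 to -1.31, AT1G01080 to -1.62, AT3G09080 to -1.44, AT5G52810 to -1.77, AT1G73120 to -1.61, AT5G38360 to -2.11, AT1G16080 to -1.35, AT4G22830 to -1.48 and AT2G27290 to -1.0006. Among probes with several genes, those of AT5G03560 (-1.31), AT4G22030 (-1.23), CSLC12 (-1.67), AT4G03940 (-0.021), AT5G51520 (-1.67), AT1G70160 (-1.12), AT1G63740 (-1.60), AT1G06890 (-1.26), AT5G35660 (-1.89), AT4G22850 (-1.59) and AT3G66654 (-1.85) turned. AT2G46220 also changed sign with median centring, from 0.91 to -0.96, and passed in neither fit. By sign alone, 22 of the 39 described probes were above 0 after quantile normalization, 12 as deposited and 0 with median centring.

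Features above 0 in all samples (1940 in the fit of the report) gave 11 of the 130 bright probes higher and 42 lower, beside 455 and 518 over all features. There 3 list genes were lower and the bright median was -0.13. A pseudocount of 0.05 gave 11 of the 130 bright probes higher and 44 lower, beside 702 and 751 of all 3438 features. There 3 list genes were lower and the bright median was -0.14. Trend and robust gave 25 bright probes higher and 36 lower, beside 702 and 558 over all features, and 1 list gene lower. Averaged pairs gave 307 and 208 over all features and 3 and 6 over the bright probes, and pairs as a random block 358 and 313, and 9 and 17. The set of numbers as a fixed block gave 30 bright probes and 1 list gene higher, and with pairs averaged as well 269 and 166 features and 2 and 3 bright probes. Chosen by all 12 samples the bright median was 0.12, and by prors2 it was 0.21 with 36 higher and 11 lower. At a threshold of 5 there were 85 probes with 67.5% and 47.7% of the signal in wild type and prors2, at 2 the wild-type share was 77.2%, and without the probes at the ceiling the shares were 52.9% and 36.1%. The causes were not tested.

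Leaving out 1 sample at a time gave 604 to 653 features higher and 506 to 542 lower, 12 to 16 and 24 to 27 bright probes, 0 list genes higher and 0 to 1 lower, medians of 0.0039 to 0.040, and 123 to 132 bright probes. Of the 18 described calls, 10 passed in all 12 of these fits. Each fit kept the neighbouring number of the sample left out, close to a repeat, so passing says little about stability. With pairs averaged, 2 of the rises and 1 of the falls passed. PRA1.B6 passed in 2, AT3G09080 in 3, AT5G54360 with AT5G54350 in 5, AT5G11010 and AT4G22830 in 6, and AT4G22850 with AT4G12000 in 8, with limma adjusted p-values up to 0.103, 0.0749, 0.0740, 0.0892, 0.0728 and 0.0660. The probe of AT5G08720 missed the threshold without wild-type number 4 (0.0530) and that of AT1G50660 without prors2 number 2 (0.0503). Without wild-type number 4 the probe of AT5G03560 passed as higher (0.00554) and that of AT1G76620 as lower (0.0465), and AT4G19900 passed without wild-type number 6 (0.0470) or prors2 number 1 or 2 (0.0317 and 0.0367).

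Same-numbered wild-type and prors2 samples correlated in their deviations from the group means at 0.053 to 0.16 over 1940 features, under 0.1 for numbers 3 and 4, so the number was not a block in the fit of the report. Over the bright probes alone all 6 correlations were 0.31 to 0.42, and the labels do not say what a shared number marks. The replicate block on the number gave 669 features higher and 540 lower, and 17 and 26 bright probes, while the set of numbers as a block gave 30 and 36 bright probes.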
